A study of Mus musculus with 6 samples.

Results

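The genes described here are those of the endoplasmic reticulum (ER) that take secreted and membrane proteins into the organelle, fold them, inspect them and pass them on towards the Golgi. They were chosen by name, as the Sec, Spcs, Srp, Pdia, Herpud, Derl and Kdelr families together with 13 single genes such as Hspa5, Calr, Xbp1 and P4hb, and 51 of the 7834 gene names in the table matched. All 51 passed the filter on low values, a minimum of 1 FPKM (fragments per kilobase of transcript, scaled to the mapped fragments of the library) in at least 2 libraries. The translocon-associated Ssr genes were also searched for, but none was among the names that matched.

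The libraries came from B-1a cells, which carry CD5, and B-1b cells, which lack it. Both are B-1 cells and were sorted by flow cytometry from the peritoneal cavity of untreated wild-type C57BL/6 mice. Per the study's methods its mice were male, and their age and number per library were not stated. Libraries were made from poly-A RNA. The labels give 3 replicates per group, but in each group the values of the third follow from the other two. Of the 96 table rows of these genes, the third of B-1b repeated the first in 96, and the third of B-1a was the mean of the other two in 95. The exception was Srp19, at 30.6 FPKM in B-1a replicate 3 against a mean of 32.6 FPKM. The comparison therefore used replicates 1 and 2 of each group, and nothing in the labels says whether these came from separate mice, so the p-values measure only the spread between these libraries. The sort marker Cd5 was at 0.446 and 0.757 FPKM in B-1a and at 0.895 and 0.737 FPKM in B-1b and did not separate the groups, which are named here by their labels. The pan-B-cell genes Cd79a, Cd79b, Ms4a1 and Cd74 were abundant in all 4 libraries, the lowest value being 404 FPKM for Ms4a1 in B-1b replicate 1.

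A B cell that makes antibody sends its immunoglobulin chains into the ER through the Sec61 channel, guided by the signal recognition particle, and a signal peptidase removes the leader peptide. Inside, the chaperone BiP (Hspa5) holds unassembled heavy chains, calnexin and calreticulin bind glycoproteins by their sugars, and protein disulfide isomerases form the bonds within and between chains. When unfolded protein accumulates, the sensors Ern1 (IRE1), Atf6 and Eif2ak3 (PERK) start the unfolded protein response. IRE1 splices the messenger of Xbp1, which with Atf6 switches on chaperone genes and is known to be needed for plasma cells. Proteins that fail to fold are returned to the cytosol and degraded, and folded cargo leaves in COPII vesicles.

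Chaperone promoters are known to carry the ER stress response element (ERSE), which is read by Atf6 and Xbp1 together with NF-Y. It was searched in RefSeq promoters of GRCm38.p6, which run from 250 bases before to 50 bases after the start, as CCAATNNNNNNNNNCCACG on either strand, together with the shorter ERSE-II, in which a single base of any kind stands between ATTGG and CCACG. Of the 51 genes, 42 matched an entry of the promoter table. The unmatched genes were Atf6, Derl1, Kdelr2, Manf, Sec11c, Sec61a1, Spcs3, Srp19 and Srp68. The ERSE stood in 6 of the 42 (14.3%), and in 0.137% of all 27025 genes with a promoter. These 6 were Calr, Canx, Hsp90b1, Hspa5, Pdia6 and Derl3, so that 5 of the 11 folding genes with a promoter held it, and 1 of the other 31. ERSE-II stood in Herpud1 and Dnajb11, and in 0.0444% of all genes. Such a match describes the letters of the promoter and is no evidence that a factor binds there.

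The elements are shown because their holders include most of the highly expressed folding genes described next. Pdia4, Pdia3 and P4hb, which were also highly expressed, held neither element. Each element is read 5′ to 3′ along its gene with 10 bases on either side, and the capitals mark its fixed letters. Those of Calr (chr8:84847065-84847103, minus strand) and Derl3 (chr10:75893232-75893270, plus strand) read in reverse, and Hsp90b1 (minus strand) has a forward copy at chr10:86705628-86705666 and a reverse copy at chr10:86705523-86705561. Those of Canx (chr11:50325790-50325828, minus strand) and Pdia6 (chr12:17266481-17266519, plus strand) read forward. The ERSE-II of Herpud1 lies at chr8:94386367-94386397 on the plus strand. For Hspa5 the 150 bases before the start (chr2:34771940-34772089, plus strand) are given.
Hspa5: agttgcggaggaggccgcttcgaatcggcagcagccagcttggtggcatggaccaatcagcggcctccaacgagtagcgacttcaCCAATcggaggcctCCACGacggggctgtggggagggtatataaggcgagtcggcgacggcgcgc
Hsp90b1, forward copy: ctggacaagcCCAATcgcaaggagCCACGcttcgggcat
Hsp90b1, reverse copy: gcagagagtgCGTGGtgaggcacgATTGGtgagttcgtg
Calr: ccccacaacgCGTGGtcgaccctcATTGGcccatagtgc
Canx: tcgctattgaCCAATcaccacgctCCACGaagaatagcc
Pdia6: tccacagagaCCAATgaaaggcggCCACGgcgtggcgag
Derl3: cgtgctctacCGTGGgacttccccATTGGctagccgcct
Herpud1: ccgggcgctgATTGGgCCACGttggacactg

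**Figure D1:**
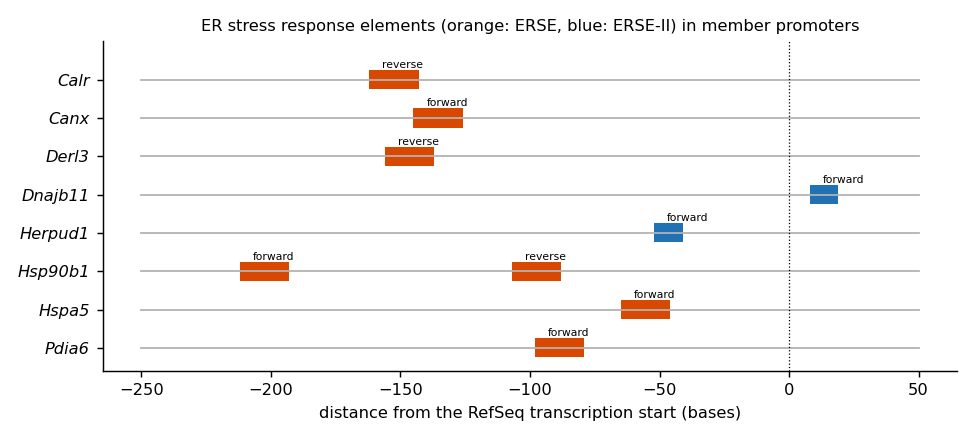
Position of each ERSE (orange) and ERSE-II (blue) in the promoters of the 8 genes that hold one, as the distance in bases from the RefSeq transcription start (dotted line), with the strand of the element relative to the gene written above it. In 7 of the 8 genes the elements lie before the start; that of Dnajb11 spans bases 8 to 18 after it.

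To learn whether the secretory machinery differs between the subsets, limma was fitted to log2(FPKM + 1) of all 7557 genes that passed the filter. Differences are given below as log2 fold changes of B-1b over B-1a, ± the standard error. At a Benjamini-Hochberg adjusted p under 0.05, limma called 0 of the 51 genes, against 15 (0.198%) of all genes, 0.159% higher and 0.0397% lower in B-1b. A linear model per gene without a shared spread called 0 of the 51 and 0 of all 7557 genes, 8.69% of which had an unadjusted p under 0.05. At an unadjusted p under 0.05 limma gave 4 of the 51, Herpud2, Pdia6, Pdia4 and Spcs2, all higher in B-1b, or 7.84% against 9.66% of all genes (5.39% higher and 4.27% lower). That count was between 1 and 12 when each library was left out in turn, a setting in which the lone library of a group is assumed to vary like those of the other, with 1 (1.96%, against 7.78% of all genes) when B-1a replicate 2 was dropped, 12 (23.5%, against 11.9%) when B-1b replicate 1 was dropped and 7 (13.7%, against 15.5%) when it was B-1b replicate 2. The log2 fold change was above 0 for 32 of the 51 (62.7%, against 56.2% of all genes), with a median of 0.18 where that of all genes was 0.054. Without B-1a replicate 2 the median of the 51 was 0.083. In 16 of the 51 (31.4%, against 28.8%) the difference between groups was larger than the differences between replicates in both groups. Both libraries of B-1b lay above both of B-1a for 16 of the genes (31.4%, against 25.8% of all genes) and below for 8 (15.7%, against 17.3%). As a whole the 51 genes thus lay close to the background, and the roles within them did not point the same way.

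**Figure D2:**
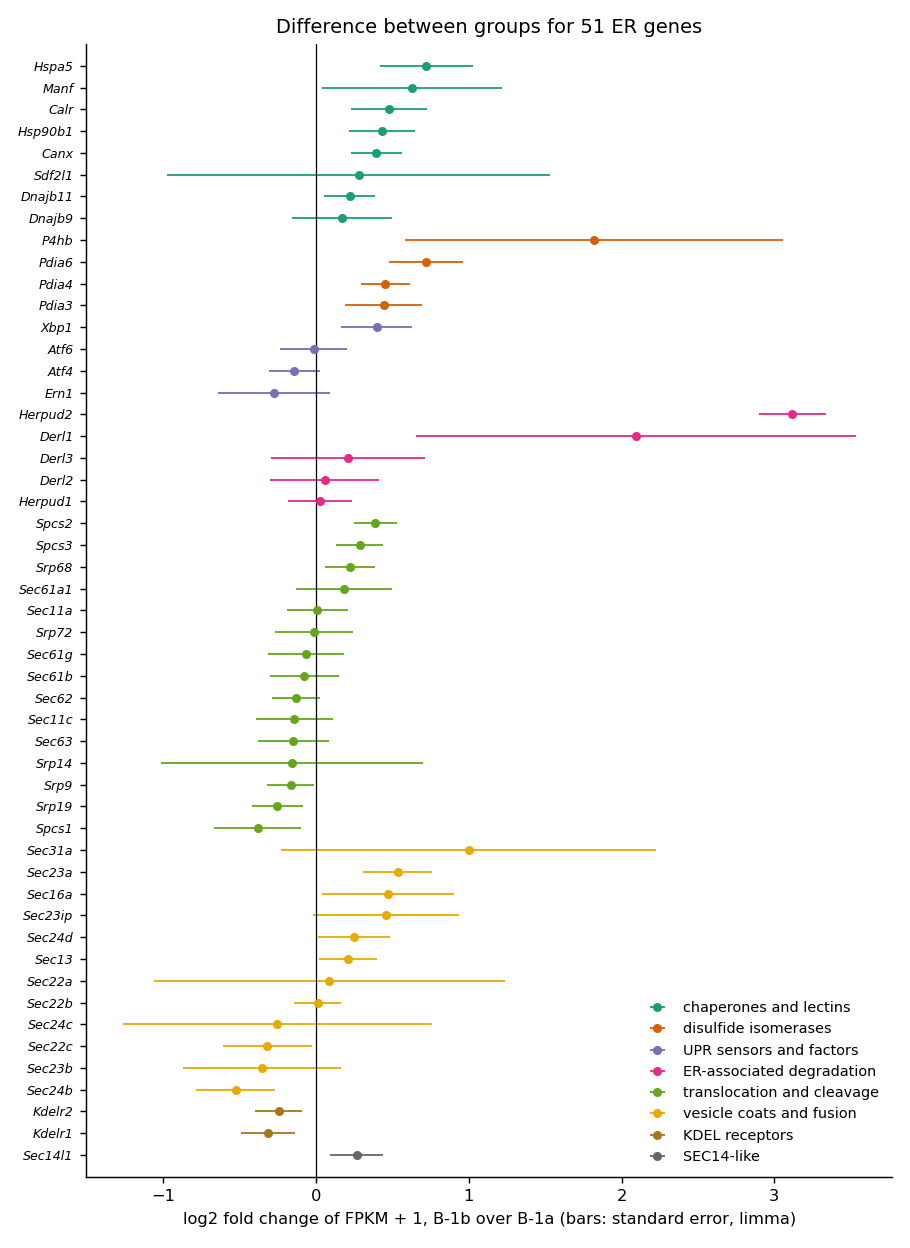
Log2 fold change of FPKM + 1, B-1b over B-1a, of all 51 genes with the standard error from limma (bars), grouped by role and coloured accordingly. All 12 chaperones, lectins and disulfide isomerases lie to the right of 0 and both KDEL receptors to the left, and the wide bars belong to genes whose replicates differed, such as P4hb, Derl1 and Sdf2l1.

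The 8 lumenal chaperones and lectins and the 4 disulfide isomerases are called the folding genes here. All 12 had a log2 fold change above 0 (56.2% of all genes did), with a median of 0.45. For 8 of the 12 the B-1b libraries lay above both B-1a libraries (25.8% of all genes). These roles were pooled after their values were seen. None passed the adjusted threshold of limma. Hspa5, which encodes BiP and lies on chromosome 2 (34771970 to 34777547 of GRCm38), was at 196 and 200.1 FPKM in B-1a and at 250.3 and 427 FPKM in B-1b. Its B-1a libraries were nearly equal, while B-1b replicate 2 stood well above B-1b replicate 1. The difference was 0.72 ± 0.30 (limma, adjusted p = 0.569).

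Hsp90b1, the ER-resident HSP90 known as GRP94, was at 158 and 157 FPKM in B-1a and at 180 and 251 FPKM in B-1b. Calr, which encodes calreticulin, was at 239 and 224 FPKM in B-1a and at 264 and 394 FPKM in B-1b. Both showed the order seen for Hspa5, with B-1b replicate 2 highest, B-1b replicate 1 next and the B-1a libraries lowest. Their differences were 0.43 ± 0.22 and 0.48 ± 0.25 (limma, adjusted p = 0.616 and 0.628). Canx, the membrane-bound lectin calnexin, departed from this order, at 77.6 and 68.1 FPKM in B-1a and at 103.5 and 89.1 FPKM in B-1b, with B-1b replicate 1 highest. Its difference was 0.40 ± 0.17 (limma, adjusted p = 0.569).

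The smaller chaperones differed less or were less even. Dnajb11, a DnaJ partner of BiP, was at 46.9 and 52.5 FPKM in B-1a and at 53.4 and 63.0 FPKM in B-1b, groups that did not overlap. Its main table row did overlap, at 46.3 and 52.5 FPKM in B-1a and at 49.4 and 49.6 FPKM in B-1b. The separation came from its other row, at 0.561 and 0 FPKM in B-1a and at 3.95 and 13.4 FPKM in B-1b. Dnajb9, another DnaJ partner of BiP, was at 14.9 and 10.4 FPKM in B-1a and at 11.1 and 18.0 FPKM in B-1b, so that its groups overlapped. Manf, a stress-induced lumenal factor, was at 8.53 and 22.1 FPKM in B-1a and at 15.1 and 31.7 FPKM in B-1b. On the log2 scale the replicates of Manf differed by 1.28 in B-1a and by 1.02 in B-1b, more than the groups did (0.63). Sdf2l1, found in the BiP complex, was at 8.14 and 52.9 FPKM in B-1a and at 62.7 and 10.4 FPKM in B-1b, a spread within each group around a difference of 0.28 ± 1.25.

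Among the disulfide isomerases, Pdia4 had the highest level of all 51 genes in each of the 4 libraries. It was at 339 and 343 FPKM in B-1a and at 443 and 495 FPKM in B-1b, with a difference of 0.45 ± 0.16 (limma, unadjusted p = 0.0460, adjusted p = 0.506). The difference was larger than the spread in either group. Pdia6 was at 88.8 and 95.9 FPKM in B-1a and at 125 and 186 FPKM in B-1b, a difference of 0.72 ± 0.24 (limma, unadjusted p = 0.0399, adjusted p = 0.481). Pdia3, the isomerase that works with calnexin and calreticulin (ERp57), was at 208 and 206 FPKM in B-1a and at 230 and 347 FPKM in B-1b, a difference of 0.44 ± 0.25 (limma, adjusted p = 0.654). For all 3 the groups were separate.
P4hb, which encodes the founding isomerase PDI, was at 102 FPKM in B-1a replicate 1 but at 8.29 FPKM in B-1a replicate 2, and at 89.6 and 131 FPKM in B-1b. Its B-1a replicate 1 lay between the B-1b libraries, so its difference of 1.82 ± 1.24 (limma, adjusted p = 0.695) rests on B-1a replicate 2 and was 0.083 without that library.

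**Figure D3:**
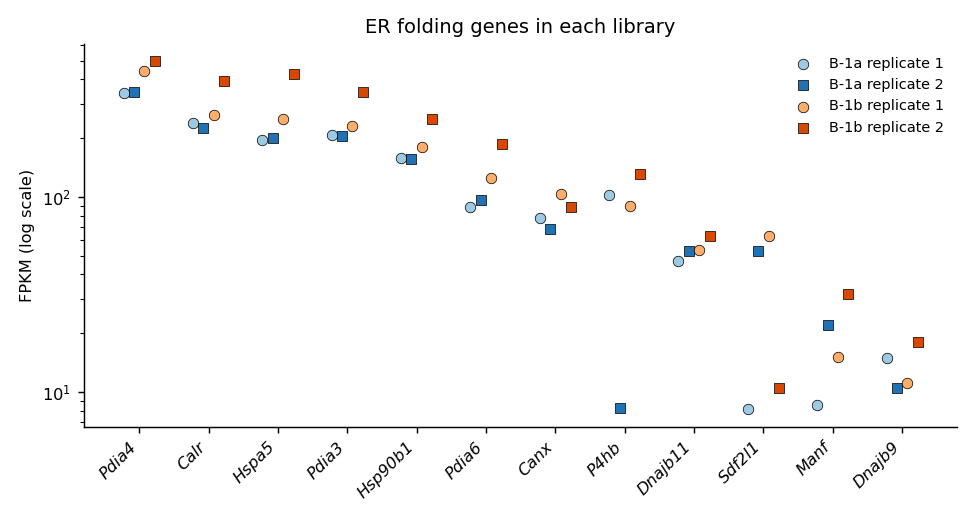
FPKM on a log axis of the 12 chaperones, lectins and disulfide isomerases in the 2 libraries of B-1a (blue) and of B-1b (orange), ordered by mean level; circles are replicates 1 and squares replicates 2. From Pdia4 to Pdia6 the B-1b points lie above the B-1a points, with B-1b replicate 2 highest, and P4hb and Sdf2l1 each have points far below the others.

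B-1b replicate 2 was the highest of the 4 libraries for 10 of the 12 folding genes, the exceptions being Canx and Sdf2l1, and for 21 of the 51 genes (41.2%, against 28.7% of all genes tested). The median log2 fold change of the 12 was 0.26 for B-1b replicate 1 and 0.71 for B-1b replicate 2, each taken over the B-1a libraries. The number with a value above 0 went from 12 to 11 when either B-1b library or B-1a replicate 2 was left out, and to 10 without B-1a replicate 1, where Manf and Sdf2l1 turned. Summed, the 12 genes made up 0.429% and 0.418% of the FPKM in B-1a and 0.563% and 0.666% in B-1b, or 0.424% ± 0.00829 against 0.614% ± 0.0722 (SD, n = 2 each). The groups did not overlap, and no p-value is given, because the set was pooled after its values were seen. Most of the difference of the total over all 51 genes, between 0.821% ± 0.00362 and 1.03% ± 0.0869 (SD, n = 2 each), lay in these 12, and the 15 translocation genes summed to 0.234% ± 0.00855 and 0.232% ± 0.0297.

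**Figure D4:**
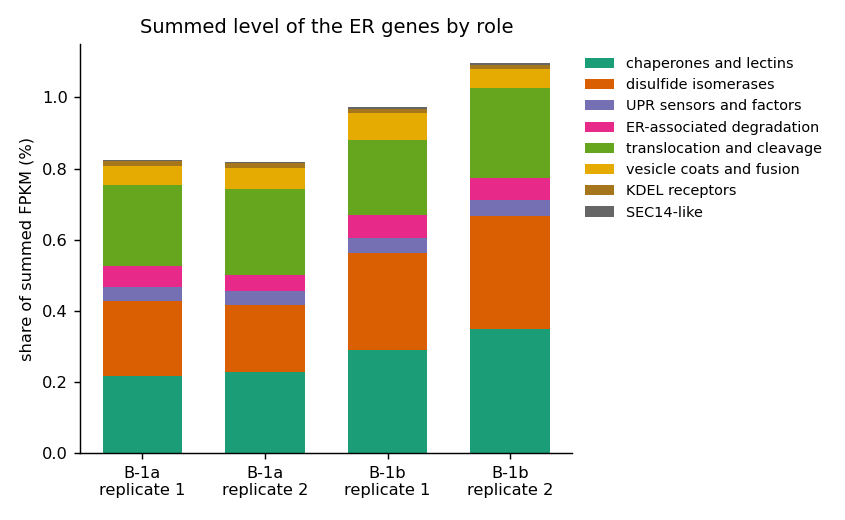
Summed FPKM of the 51 genes as a percent of all FPKM of each library, stacked by role. The total is 0.824% and 0.818% in the B-1a libraries and 0.972% and 1.10% in the B-1b libraries, and the chaperone and isomerase layers at the base account for most of the difference.

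Markers of the B-cell subsets and genes of other cells varied with these values in part. Of 6 B-1 markers tested, 5 were higher in both B-1b libraries, such as Ctla4 at 21.1 and 14.6 FPKM against 6.78 and 4.35 FPKM in B-1a, and Spn overlapped. Of the B-2 markers, Ighd, the IgD heavy chain, was lower in both B-1b libraries, at 214 and 241 FPKM against 436 and 329.5 FPKM in B-1a, Cd55 was also lower in both, Fcer2a was higher in both, and Cr2 overlapped. Of 10 macrophage markers 7 were in the table, none of them at 0, and they summed to 4512 and 3392 FPKM in B-1a and to 4157 and 7192 FPKM in B-1b, mostly Lyz2. Adgre1, Csf1r, Cd68 and Cd14 were higher in both B-1b libraries. Timd4 was lower in both, at 23.4 and 23.8 FPKM in B-1a and at 16.5 and 18.9 FPKM in B-1b, and C1qa stood at 137 FPKM in B-1b replicate 2 against 4.03 to 21.9 FPKM elsewhere. The 5 mast cell markers in the table summed to 124 and 123 FPKM in B-1a and to 223 and 129 FPKM in B-1b. The platelet gene Pf4 was at 136 and 106 FPKM in B-1a and at 209 and 272 FPKM in B-1b. T cell markers summed to between 9.62 and 13.2 FPKM in all libraries, and Csf3r of the neutrophil list was at most 2.43 FPKM. The part of these subsets and cells in the difference was not tested, and in bulk RNA fewer cells of a type and less RNA per cell cannot be told apart. The 6 plasma cell markers in the table summed to 313 and 333 FPKM in B-1a and to 185 and 281 FPKM in B-1b, mostly Mzb1. Of the 5 tested, Tent5c was higher in both B-1b libraries, at 2.49 and 3.03 FPKM against 0.988 and 1.40 FPKM in B-1a, Mzb1 and Irf4 were lower in both, and Prdm1 and Jchain overlapped between groups. Jchain, which joins IgM into pentamers, was at 14.1 and 22.2 FPKM in B-1a and at 15.1 and 14.2 FPKM in B-1b. Mzb1, an ER chaperone of IgM-secreting B cells, was at 261 and 281 FPKM in B-1a and at 137 and 240.4 FPKM in B-1b. The cargo itself, the IgM heavy chain Ighm, was at 32.5 and 38.7 FPKM in B-1a and at 2585 and 2781 FPKM in B-1b. Its difference was 6.20 ± 0.17 (limma, adjusted p = 0.0106). The paper describes both subsets as IgM-positive. Whether the low Ighm value in B-1a stems from the cells or from how the table was made was not tested.

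The sensors and transcription factors of the unfolded protein response gave no common direction. Xbp1, on chromosome 11 (5520659 to 5525893 of GRCm38), was at 79.7 and 75.5 FPKM in B-1a and at 85.0 and 124 FPKM in B-1b. It kept the order of the major chaperones, with a difference of 0.40 ± 0.23 (limma, adjusted p = 0.658). The table has 1 row for Xbp1, so spliced and unspliced messenger cannot be told apart. Atf4, the factor downstream of PERK, was at 32.6 and 33.5 FPKM in B-1a and at 27.4 and 32.6 FPKM in B-1b, a small difference downward. Atf6 was at 15.7 and 17.7 FPKM in B-1a and at 19.3 and 14.1 FPKM in B-1b, with a difference of -0.014 that lies inside the spread. Ern1 was among the lowest of the 51 genes, at 2.02 and 1.64 FPKM in B-1a and at 1.69 and 1.03 FPKM in B-1b. As a level per length, Xbp1 averaged 90.9 FPKM over the 4 libraries and Ern1, whose product splices it, 1.59 FPKM.

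The 15 genes of translocation and signal cleavage were split, 5 with a log2 fold change above 0 and 10 below, with a median of -0.076. The 3 measured parts of the Sec61 channel did not separate the groups. Sec61b was at 102 and 105 FPKM in B-1a and at 81.9 and 118 FPKM in B-1b, and Sec61g at 41.8 and 40.9 FPKM in B-1a and at 31.8 and 48.8 FPKM in B-1b. In both genes the B-1b libraries lay on either side of the B-1a libraries. Sec61a1, the pore itself, was at 15.1 and 12.3 FPKM in B-1a and at 20.5 and 11.9 FPKM in B-1b, with the B-1b libraries again on either side. Sec62 and Sec63, which help post-translational import, were close to level, with log2 fold changes of -0.13 and -0.15.

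The signal peptidase subunits went different ways. Spcs2 was at 46.9 and 45.5 FPKM in B-1a and at 58.9 and 62.7 FPKM in B-1b, a difference of 0.39 ± 0.14 (limma, unadjusted p = 0.0484, adjusted p = 0.512). The spread of Spcs2 was small in both groups. Spcs3 was also higher in both B-1b libraries, at 114 and 130 FPKM against 104 and 95.4 FPKM in B-1a. Spcs1 was at 47.1 and 29.3 FPKM in B-1a and at 26.1 and 30.7 FPKM in B-1b. Sec11c, a catalytic subunit and the most abundant gene of this role, was at 143 and 123 FPKM in B-1a and at 98.6 and 147 FPKM in B-1b, so that its groups overlapped. Of the signal recognition particle, Srp9 and Srp19 were lower in both B-1b libraries (log2 fold changes of -0.17 and -0.25) and Srp68 higher (0.22), none past the threshold. Srp14 followed the replicate number rather than the group, at 56.4 and 160 FPKM in B-1a and at 43.5 and 166 FPKM in B-1b.

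Both KDEL receptors, which return escaped ER proteins such as BiP from the Golgi, were lower in both B-1b libraries. Kdelr1 was at 17.7 and 14.97 FPKM in B-1a and at 13.2 and 12.7 FPKM in B-1b, a difference of -0.31 ± 0.18 (limma, adjusted p = 0.654). Kdelr2 was at 30.5 and 29.7 FPKM in B-1a and at 23.9 and 26.7 FPKM in B-1b, a difference of -0.24 ± 0.15 (limma, adjusted p = 0.680). Neither passed the threshold, and their values lay opposite to those of the KDEL-bearing chaperones they retrieve.

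Of the 12 genes of vesicle coats and fusion, 8 had a log2 fold change above 0 and the median was 0.15. Sec13, the most abundant coat gene, was at 79.6 and 81.8 FPKM in B-1a and at 81.5 and 107.0 FPKM in B-1b, where B-1b replicate 1 lay between the B-1a libraries. Sec23a, an inner coat subunit of COPII, was at 8.37 and 8.92 FPKM in B-1a and at 15.2 and 11.1 FPKM in B-1b, a difference of 0.54 ± 0.23 (limma, adjusted p = 0.569). Its paralogue Sec23b was at 26.1 and 28.0 FPKM in B-1a and at 35.0 and 12.4 FPKM in B-1b, with the B-1b libraries on either side. Sec24b, a cargo-binding coat subunit, had the smallest p of the genes lower in B-1b, at 7.67 and 10.5 FPKM in B-1a and at 5.27 and 6.72 FPKM in B-1b, a difference of -0.52 ± 0.26 (limma, adjusted p = 0.611). Sec22c, a SNARE-related gene, was at 3.17 and 2.57 FPKM in B-1a and at 2.15 and 2.03 FPKM in B-1b. Sec14l1, matched by its name alone, encodes a lipid-binding protein outside this pathway and was at 11.4 and 11.2 FPKM in B-1a and at 14.7 and 13.0 FPKM in B-1b.

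The largest difference belonged to Herpud2, a membrane protein related to the degradation factor Herpud1. It lies on chromosome 9 of GRCm38 (25108132 to 25151820, minus strand). It was at 2.06 and 1.51 FPKM in B-1a and at 24.5 and 21.7 FPKM in B-1b. The libraries of each group were close together and the groups far apart, with a difference of 3.12 ± 0.22 (limma, adjusted p = 0.0523). The adjusted p was 0.0496 when B-1b replicates 1 and 3 were averaged as 1 library. The values of Herpud2 are the same in both, and only the spread estimated from all genes and their ranking changed. In the other settings with 4 libraries or 3 it was between 0.0643 and 0.405. Herpud1, well known as a target of the stress response, was far more abundant and nearly level, at 173 and 132 FPKM in B-1a and at 142 and 168 FPKM in B-1b, a difference of 0.027 ± 0.21. Of the derlins, which belong to the channel out of the ER, Derl2 and Derl3 overlapped between groups. Derl1 was at 16.2, 15.7 and 18.1 FPKM in B-1a replicate 1 and both B-1b libraries but at 0.0133 FPKM in B-1a replicate 2.

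Very low values of this kind in single libraries are visible at the level of the table's rows, which stand for transcripts. Of the 51 genes 22 have several rows, and in 8 of these (36.4%) the row with the highest value differed between the replicates of at least 1 group, against 39.3% of all 3355 genes with several rows. Sec31a, the outer coat of COPII, had 1 row at 0 and 21.2 FPKM in B-1a and at 27.0 and 0 FPKM in B-1b, while its other row stayed between 2.28 and 8.53 FPKM. The summed value of 2.28 and 24.1 FPKM in B-1a and of 33.6 and 8.53 FPKM in B-1b therefore follows whether that row was present. Derl2 had a row listed at 0 in B-1a replicate 1 and B-1b replicate 2 and at 20.3 and 19.2 FPKM in the others, and here the other row made up much of the gap. The rows of Srp68 made up for each other likewise, so that its sum stayed between 23.7 and 31.1 FPKM. In P4hb it was the main row alone that went from 95.3 FPKM in B-1a replicate 1 to 1.76 FPKM in B-1a replicate 2. Spcs2 had a row at 0.652 and 0.936 FPKM in B-1a and at 31.7 and 13.0 FPKM in B-1b, while its main row went from 43.9 and 42.0 FPKM to 23.9 and 35.5 FPKM. For Hspa5 all 4 rows had a log2 fold change above 0, from 0.61 to 1.07, and the same row led in every library. With replicates of a group apart by more than 1 on the log2 scale in 10 of the 51 genes (19.6%, against 19.2% of all genes), the genes were about as even as the rest of the table.

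**Figure D5:**
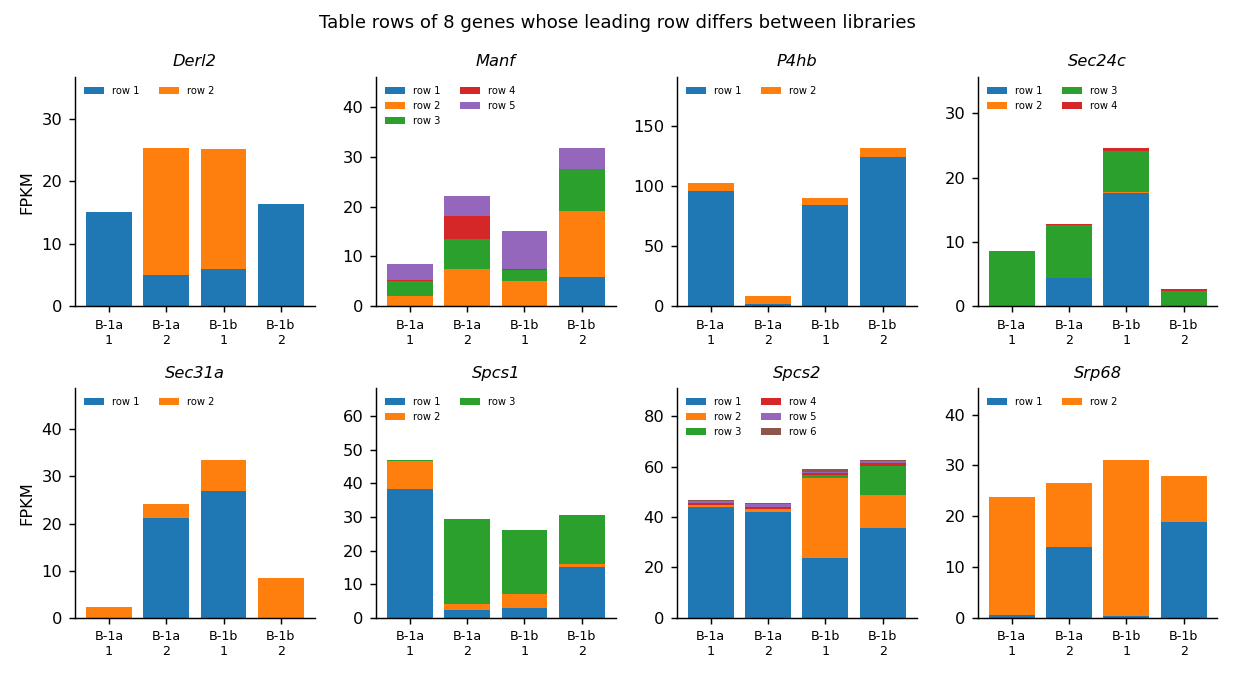
FPKM of each table row (colours, stacked) in the 4 libraries for the 8 genes whose leading row differs between libraries. In Srp68 the rows replace each other while the sum stays between 23.7 and 31.1 FPKM, in Derl2 they do so in part, and in Sec31a, Sec24c and P4hb the sum is low where row 1 is near 0.

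Other genes of the same pathway, taken from lists of its parts, gave limma 0 calls as well. Of the 124 genes tested on 6 such lists, 6 (4.84%) had an unadjusted p under 0.05 with higher values in B-1b and 1 (0.806%) with lower, against 5.39% and 4.27% of all genes, so that neither share was above the background. The median log2 fold change was -0.0098 over 21 other folding genes, 0.034 over 27 genes of the oligosaccharyltransferase and N-glycan assembly, 0.11 over 18 further genes of ER-associated degradation, 0.098 over 13 of the unfolded protein response, 0.035 over 34 of ER exit and COPI, and 0.091 over 11 of signal recognition particle receptors and tail insertion. Over all genes it was 0.054. The following were named after their values were seen. Txndc5, another protein disulfide isomerase, was at 45.7 and 47.5 FPKM in B-1a and at 171 and 150.1 FPKM in B-1b, a difference of 1.76 ± 0.15 (limma, adjusted p = 0.0777). Rtcb, the ligase that rejoins the Xbp1 messenger after IRE1 cuts it, was at 46.5 and 34.5 FPKM in B-1a and at 96.5 and 92.0 FPKM in B-1b, a difference of 1.21 (limma, adjusted p = 0.240). Rpn1, of the oligosaccharyltransferase, was at 24.0 and 20.7 FPKM in B-1a and at 55.0 and 42.8 FPKM in B-1b, a difference of 1.09 (limma, adjusted p = 0.257), while its partner Rpn2 had a difference of -0.14. Sel1l, the adaptor of the main ER ubiquitin ligase, was at 14.1 and 19.3 FPKM in B-1a and at 35.5 and 28.2 FPKM in B-1b, a difference of 0.90 (limma, adjusted p = 0.380). In all 4 the groups were separate, without passing the adjusted threshold. Atf3 and Tmed10 were the other genes with an unadjusted p under 0.05 and higher values in B-1b, and Cnpy2 was the one with lower values. Stt3b, a catalytic subunit of the oligosaccharyltransferase, was at 0.690 and 118 FPKM in B-1a and at 247 and 220.2 FPKM in B-1b, another low value in a single library.

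All 51 genes are protein coding, and 25 overlap another annotated gene, 9 of them another protein-coding gene, such as Pdia6 with Atp6v1c2, Pdia3 with Catsper2, Kdelr1 with Grin2d and Spcs2 with Xrra1. Whether the libraries kept strand was not stated, so reads of such pairs may have been shared.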

How the data were processed

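Poly-A RNA of both sorted subsets was sequenced. Per the labels and the study's methods, the authors used HISAT2 for alignment (GRCm38/mm10), StringTie for transcript levels and Ballgown for tests. Versions, annotation and row filter were not stated. The table gives no unit, and its deposited values were taken to be FPKM because they are fractional and StringTie made them. The table is, however, named as raw read counts, so the unit is uncertain, and with it every level and summed share and any comparison of levels between genes. Summed FPKM were 346147 and 344980 in B-1a replicates 1 and 2 and 324330 and 366992 in B-1b. Depth is unknown, so no counting error is given. There are 0 further sample columns.

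Of 13747 rows, B-1b replicate 3 equalled replicate 1 in 13722 and B-1a replicate 3 the mean of replicates 1 and 2 in 13710 (relative tolerance 1e-06). These columns were not used, which leaves 2 libraries per group. Rows of a gene name were summed, and the 7557 genes reaching 1 FPKM in 2 or more libraries were tested on log2(FPKM + 1), a scale that understates the change of low genes, with limma 3.58.1 (R 4.3.3, intensity trend, Benjamini-Hochberg). The step was tested on simulated data. Coordinates are from GENCODE M21. The rest was done in Python 3.11.15 with pandas 2.3.3. The genes and lists were chosen with earlier results of these data known, ERSE-II after the promoters were seen. Named are genes of smallest p (6 per direction), the most abundant and most different of each role, and 14 listed genes, and, after their values were seen, others to complete a role.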

Additional observations from a re-analysis of the deposited data

How the results depend on the processing

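The number of libraries, 2 per group, limits every comparison. Limma called 1 of the 51 genes (Herpud2) with B-1b replicates 1 and 3 averaged (0.251% of all genes) and 5 (9.80%) with all 6 columns as deposited, against 16.7% of all genes. In that setting 17 (33.3%) had an unadjusted p under 0.05, against 33.7%. Its derived columns understate the spread. With table rows tested apart, 8 of 85 rows (9.41%, against 9.88% of all rows) had an unadjusted p under 0.05, 49 had a log2 fold change above 0 (54.6% of all rows did) and their median was 0.12 (0.050 over all rows). Of the 22 rows of the 12 folding genes 20 were above 0 and 13 separate and higher (24.2% of all rows). With equal upper quartiles the median over the 51 genes was 0.14. When single libraries were left out, 1 library was compared with 2, so that the spread came from 1 group alone and groups were more easily separate (43.1% of all genes are so with 4 libraries). The 51 genes gave 1 to 12 at an unadjusted p under 0.05 (7.11% to 15.5% of all genes), 32 to 41 separate genes (64.8% to 77.7% of all genes) and a median of 0.083 to 0.15. The median of the 12 folding genes was 0.26 to 0.71, and 10 to 11 of them were above 0. The direction of Herpud1 turned with equal upper quartiles (-0.020) and with all 6 columns (-0.018), and that of Atf6 with all 6 columns (0.056). Left-out libraries moved Herpud1 from -0.17 to 0.22, Atf6 from -0.22 to 0.20, Sec11c from -0.43 to 0.15, Sec61a1 from -0.18 to 0.55, Sec61b from -0.33 to 0.18 and Sec61g from -0.37 to 0.24. The cause of these shifts was not tested. A pseudocount of 0.1, no filter, at least 10 FPKM, equal totals without immunoglobulin genes and the linear model per gene changed no direction or call of a gene chosen by the naming rule, except that Sec24b, Sec22c and Ern1 were not tested at the minimum of 10 FPKM. Samples with the same replicate number did not deviate together (correlation 0.00124 across 7557 genes), and with the replicate number as a block limma called 0 of the 51 and 0 of all 7557 genes, with 3 (5.88%, against 8.12% of all genes) at an unadjusted p under 0.05.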
